A study of Mus musculus with 20 samples.

Results

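The genes described here encode 10 transcription factors and cofactors that are switched on aberrantly in human T cell acute lymphoblastic leukemia (T-ALL). They are *Tal1*, *Lyl1*, *Lmo1*, *Lmo2*, *Tlx1*, *Tlx3*, *Hoxa9*, *Hoxa10*, *Mef2c* and *Hhex*, chosen by name from 39017 rows of a table of expected read counts, and all 10 had a row. RNA was sequenced from bone marrow after transplantation of 10 leukemias into mice. The leukemias had been induced by insertional mutagenesis (IM) with the retrovirus MOL4070LTR in C57Bl/6 x 129Sv/Jae F1 mice. Each leukemia, named 20M, 2M, 4638, 5C, 73A, 73M, 78A, 8633, JW14 or JW81, had 2 libraries. The column name of one library of each leukemia carries the letters VEH and that of the other DEX, and the sources used here do not explain these letters. The labels do not give the genotype of the animal in which each leukemia arose. Every leukemia carries the retrovirus, which can raise the expression of genes near its insertion sites, and each line began in 1 animal. The labels do not say whether both libraries of a leukemia came from separate recipients, so p-values measure the spread between these libraries, which may be technical.

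TAL1 and LYL1 are basic helix-loop-helix proteins that bind E-box sequences together with E proteins such as TCF3 and TCF12. LMO1 and LMO2 do not bind DNA themselves and bridge TAL1 or LYL1 to GATA factors through LDB1. TLX1, TLX3, HOXA9, HOXA10 and HHEX are homeodomain proteins, and MEF2C is a MADS box factor. Most of these genes are active in blood stem and progenitor cells and are shut down as thymocytes commit to the T lineage, while *Tal1* stays on in erythroid and megakaryocytic cells, *Lmo2* in erythroid and myeloid cells, and *Mef2c* in myeloid and B cells. In human T-ALL their ectopic expression marks subgroups of the disease.

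The libraries held from 8226528 to 201222288 counts (median 23032916), the largest being 73M VEH. Ribosomal RNA genes exceeded 1 count per 1000000 in 5 libraries, namely 5C VEH, 20M DEX, 73M DEX, JW14 DEX and JW81 DEX. Leukemia 4638 stood apart from the rest. Its summed FPKM over 8 T lineage markers were 185 and 220, against 340 to 1044 in the other 18 libraries, and *Cd2* (1.06 and 1.32 FPKM) and *Cd5* (0.263 and 0.200 FPKM) were the lowest. All 8 were called lower in 4638 than in the other leukemias, as were 4700 of all 17114 genes tested. Its myeloid (6516 in VEH and 3474 in DEX) and B lineage (28.5 and 46.3) marker sums were the highest of the 10 leukemias on average, although 73A VEH, with a myeloid sum of 3780, exceeded 4638 DEX. In bulk marrow, fewer cells of a type and less RNA per cell cannot be told apart.

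A gene was called expressed in a leukemia when it reached 1 FPKM (expected counts per kb of exon and per 1000000 counts of the library) in both libraries. Of 100 combinations of a gene and a leukemia, 21 were expressed, 75 were under 1 FPKM in both libraries and 4 were split between the libraries, so that both libraries fell on the same side of the threshold in 96. *Lyl1* was expressed in 9 leukemias, *Lmo1* in 6, *Lmo2* and *Hhex* in 2 each, and *Tal1* and *Mef2c* in 1 each, while *Tlx1*, *Tlx3*, *Hoxa9* and *Hoxa10* reached 1 FPKM in none. Leukemia 4638 expressed 6 of the 10 genes, 20M, 2M, 73A, 73M, 78A and JW81 expressed 2 each, and 5C, 8633 and JW14 expressed 1 each, which was *Lyl1*.

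**Figure D1:**
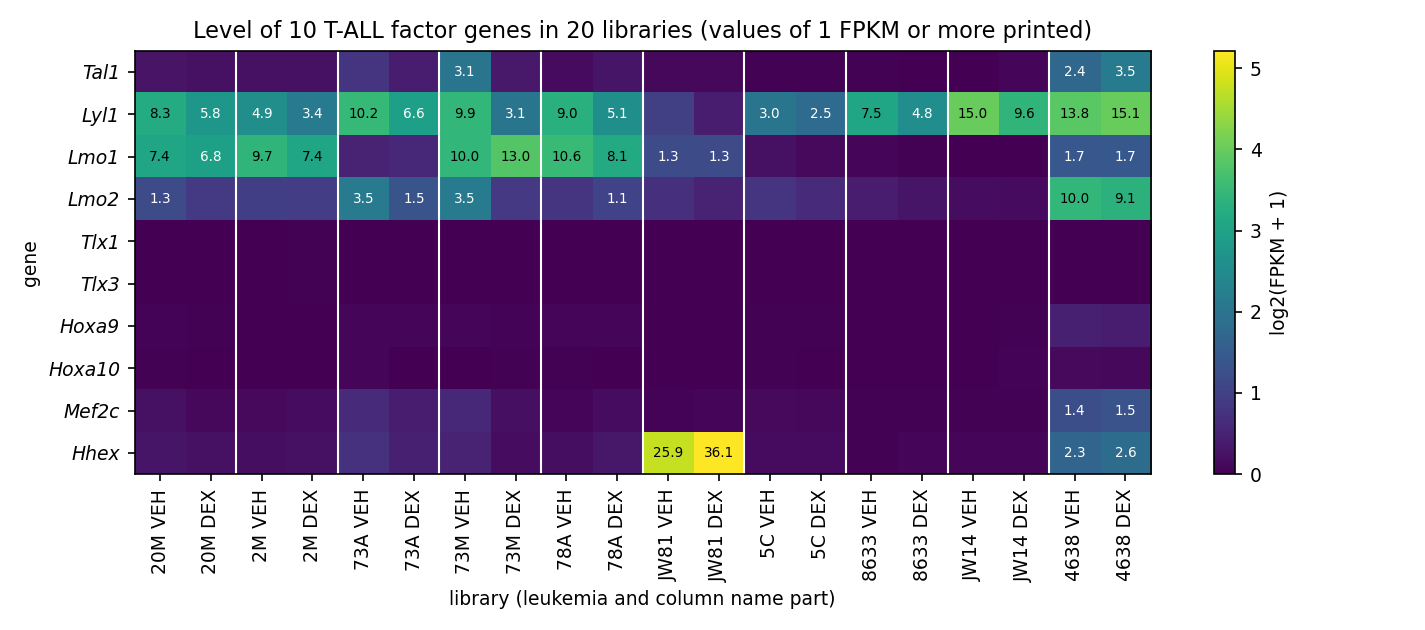
Levels of the 10 genes in each of the 20 libraries, as log2(FPKM + 1) in color, with the FPKM printed wherever it was 1 or more. Columns are grouped by leukemia, VEH before DEX, and the brightest cells are *Hhex* in JW81 at 25.9 and 36.1 FPKM, whereas the rows of *Tlx1*, *Tlx3*, *Hoxa9* and *Hoxa10* stay dark.

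The 7 genes with enough counts to be tested (*Tal1*, *Lyl1*, *Lmo1*, *Lmo2*, *Hoxa9*, *Mef2c* and *Hhex*) all differed among leukemias in edgeR's quasi-likelihood test, with adjusted p-values from 1.57e-10 (*Hhex*) to 2.26e-05 (*Tal1*) for the 6 other than *Hoxa9*. This test called 84.8% of all 17114 genes tested, so such a call says little about a single gene. *Tlx1*, *Tlx3* and *Hoxa10* did not pass the filter on low counts. When each leukemia was set against the mean of the other 9, 35 of 70 combinations passed, 20 of them higher and 15 lower, among them *Hoxa9* higher in 4638 and lower in 8633. *Hoxa9* passed the filter only through the 2 libraries of 4638, so its differing, and its being higher there, was fixed by the filter and is no result. Its call in 8633, from 0 and 1 counts, was lost in 5 of 28 alternatives and is not read as a result either. Both *Hoxa9* calls are included in the counts given here. The 6 tested genes other than *Hoxa9* were all higher in 4638 too, where 30.6% of all genes were called higher. In 73M 4 were higher (18.4% of all genes), in 73A 3 (16.8%), in JW81 2 (19.7%) and in 20M (19.3%), 2M (17.7%), 78A (15.6%) and JW14 (27.6%) 1 each. In 8633 (19% of all genes) and JW14 (22.3%) 5 were lower, in 5C (18.2%) and JW81 (14.7%) 2 each and in 2M (10.9%) 1.

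*Tal1* was detected at appreciable levels in 3 libraries. It measured 2.40 FPKM in 4638 VEH (211 counts) and 3.52 in 4638 DEX (235 counts). In 73M it measured 3.07 FPKM in the VEH library (2704 counts) and 0.283 in the DEX library (20 counts), a 10.8-fold gap between the libraries of 1 leukemia. Leukemia 73A had 0.745 FPKM in VEH and 0.314 in DEX, and no other library exceeded 0.232.

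Against the other leukemias, *Tal1* was higher in 4638 by 4.75 ± 0.47 on the log2 scale (SE, edgeR adjusted p = 1.12e-06), in 73M by 3.77 ± 0.51 (adjusted p = 7.61e-05) and in 73A by 1.90 ± 0.61 (adjusted p = 0.0304). The call in 73M rested on its VEH library, since without it the difference was 1.34 with an adjusted p of 0.171. The call in 73A was lost in 4 of 27 alternatives, among them without either of its libraries (adjusted p = 0.308 without VEH and 0.0944 without DEX). *Tal1* was called lower in 8633 and JW14, where the libraries held between 0 and 2 counts, and each of these calls was lost in 4 of 28 alternatives.

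The 3 leukemias with the most *Tal1* were also those with the highest sums over 8 erythroid markers. These sums were 361 and 735 FPKM in 4638, 753 in 73M VEH, 101 in 73M DEX, 204 in 73A VEH and 55.2 in 73A DEX, and they lay between 1.90 and 29.3 elsewhere. All 8 erythroid markers reached 1 FPKM in 73M VEH and 5 did in 73M DEX. The B lineage sum in 73M moved the same way, from 28.4 FPKM in VEH to 5.21 in DEX. The part of these cells in the *Tal1* values was not tested. The genes most like *Tal1* over the 10 leukemia means were *Car2* (Pearson's r 0.996), *Aqp1* (0.996) and *Cd79a* (0.991), out of 11552 genes compared.

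*Lyl1*, the relative of *Tal1*, was the most widely expressed of the 10 genes. It measured 13.8 (VEH) and 15.1 (DEX) FPKM in 4638, 15.0 and 9.59 in JW14, 10.2 and 6.64 in 73A, 8.29 and 5.77 in 20M, and 8.96 and 5.07 in 78A. The lower leukemias were 73M (9.88 and 3.06), 8633 (7.49 and 4.84), 2M (4.94 and 3.43) and 5C (3.05 and 2.55). Leukemia JW81 was the exception, with 0.996 FPKM in VEH (46 counts) and 0.321 in DEX (12 counts), both under the threshold.

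Ordered by their means, the library ranges of neighbours from 4638 (14.5 FPKM) to 2M (4.19 FPKM) overlapped at every step. Each range spans a VEH and a DEX column. Compared within columns, JW14 exceeded 73A, 73A exceeded 20M and 8633 exceeded 2M in both. The other steps of this order reversed between the columns and are not resolved. The ranges of 2M, 5C and JW81 did not overlap. *Lyl1* was lower in JW81 than in the other leukemias (a log2 difference of -3.30, SE 0.32, edgeR adjusted p = 1.62e-06) and lower in 5C (-0.97, SE 0.26, adjusted p = 0.00771). It was higher in JW14 (1.45, SE 0.20, adjusted p = 4.34e-05) and in 4638 (1.44, SE 0.20, adjusted p = 2.94e-05). The calls in JW81, JW14 and 4638 held in every alternative, and that in 5C was lost in 2 of 29, namely without 5C VEH (adjusted p = 0.137) and without the term for the column name (0.0614).

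JW14, with the second highest *Lyl1* level, had the lowest myeloid marker sums of the series (45.8 FPKM in VEH and 24.5 in DEX, against 325 to 6516 elsewhere). Its erythroid sums, 15.5 and 16.3 FPKM, lay near the median of the 20 libraries (15.9), and the part of other cells in its *Lyl1* level was not tested. The 3 genes most like *Lyl1* were *Pdhx* (r = 0.944), *Gm14410* (0.931) and *Unc119* (0.927). Exons of *Lyl1* (chr8:84701457-84704715, plus strand, mm10) share 4 bases with *Nfix* on the opposite strand, and *Nfix* did not exceed 1.54 FPKM in any library.

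*Lyl1* was also the only one of the 7 tested genes that differed between columns by name. It was lower in DEX than in VEH in 9 of 10 leukemias, by 0.65 on the log2 scale (a log2 difference of -0.65 with SE 0.14, edgeR with leukemia as a block, adjusted p = 0.0135), where 4.81% of all genes were called lower. The exception was 4638. The adjusted p lay between 0.000361 and 0.0474 in the alternatives that kept the leukemia as a block, the highest value coming with a term for the 5 ribosomal RNA libraries, and it was 0.99996 without the block. Among the 5 leukemias with such a library *Lyl1* was lower in DEX in 5 of 5 (mean difference of log2(FPKM + 1) -0.65, SD 0.46), and among the 5 without one in 4 of 5 (-0.42, SD 0.32).

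**Figure D2:**
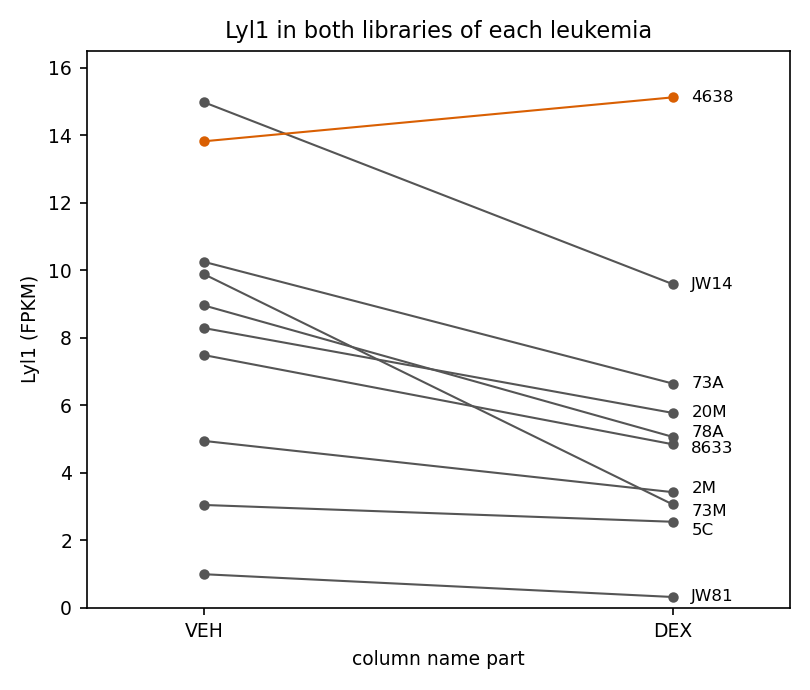
*Lyl1* level (FPKM, linear axis from 0) in the VEH and DEX library of each of the 10 leukemias, with a line joining the libraries of 1 leukemia. The 9 grey lines fall from VEH to DEX, and the orange line of 4638 rises from 13.8 to 15.1.

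Myeloid marker sums were lower in DEX than in VEH in 8 of 10 leukemias, and T lineage marker sums in 9 of 10, the exception being 5C. In the leukemias other than 4638 and 5C, the T lineage sum and *Lyl1* were both lower in DEX. In 4638 the T lineage sum went from 220 to 185 FPKM while *Lyl1* was higher, and in 5C from 340 to 365 while *Lyl1* was lower. The myeloid sum and *Lyl1* were both lower in DEX in 20M, 2M, 5C, 73A, 73M, JW14 and JW81. In 78A and 8633 the myeloid sum was higher (901 to 1324 FPKM and 325 to 480 FPKM) while *Lyl1* was lower. In 4638 it went from 6516 to 3474 while *Lyl1* was higher. The part of these cells in the *Lyl1* difference was not tested. The remaining 6 tested genes passed no threshold in this comparison. Their log2 differences were -0.52 for *Lmo2* (adjusted p = 0.141), -0.40 for *Tal1* (0.628), -0.27 for *Mef2c* (0.496), -0.06 for *Lmo1* (0.846), -0.03 for *Hoxa9* (0.973) and 0.03 for *Hhex* (0.959). *Lmo2* was lower in DEX in 9 of 10 leukemias, and the exception was 78A.

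*Lmo1*, whose protein bridges TAL1 or LYL1 to GATA factors, was high in both libraries of 20M, 2M, 73M and 78A. The 250 bases before its RefSeq start site (GRCm38.p6, chr7:109175208-109175457, minus strand) are shown because this gene and *Hhex* had the largest ranges between leukemias among the 10. Capitals mark matches, on either strand, to the E-box CANNTG, to the GATA motif GATAA and to the core TGGGAA of sites bound by RBPJ, the DNA-binding partner of NOTCH.
Lmo1: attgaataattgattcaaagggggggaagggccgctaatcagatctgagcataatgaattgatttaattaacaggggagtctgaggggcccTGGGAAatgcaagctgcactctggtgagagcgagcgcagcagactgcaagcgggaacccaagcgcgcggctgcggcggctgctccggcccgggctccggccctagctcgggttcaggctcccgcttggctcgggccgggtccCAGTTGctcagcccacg

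The window holds 1 match to CANNTG and 1 to TGGGAA and none to GATAA. Among 32851 windows of this length in the RefSeq table, 66.2% hold the E-box, 21.6% TGGGAA and 22.6% GATAA, so such matches are common, and a match in letters is not a bound site.

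*Lmo1* measured 7.41 (VEH) and 6.85 (DEX) FPKM in 20M, 9.67 and 7.41 in 2M, 9.99 and 13.0 in 73M, and 10.6 and 8.06 in 78A. It measured 1.67 and 1.69 FPKM in 4638 and 1.33 and 1.30 in JW81. It was under 1 FPKM in 73A (0.410 and 0.527), 5C (0.171 and 0.0903) and 8633 (0.0434 and 0.0282, from 2 and 1 counts), and both JW14 libraries were at 0 counts. The lowest of the 8 libraries of 20M, 2M, 73M and 78A was 4.05-fold above the highest of the other 12, and both libraries of every leukemia fell on the same side of 1 FPKM.

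From 20M (mean 7.13 FPKM) downwards, no library range overlapped that of the next leukemia in the order 4638, JW81, 73A, 5C, 8633 and JW14, whereas those of 73M, 78A and 2M overlapped from one to the next. A count of 0 in JW14 allows up to 0.0512 FPKM in VEH and 0.235 in DEX (3 counts per library), and the lowest of the 8 high libraries was at least 29.1-fold above the larger of these floors. In edgeR, *Lmo1* was higher than in the other leukemias in 73M by 4.28 ± 0.17 on the log2 scale (SE, adjusted p = 1.15e-09), in 78A by 4.03 ± 0.18 (2.28e-09), in 2M by 3.85 ± 0.18 (3.01e-09) and in 20M by 3.50 ± 0.19 (1.36e-08), and these 4 calls held in every alternative.

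The zero counts of JW14 lower the mean of the others that each remaining leukemia is compared with, and fitted differences against it depend on the prior count. In limma-trend on log2 counts per 1000000, added after the data were seen, *Lmo1* was higher in the same 4 leukemias (2.91 to 3.66), lower in JW14 (-5.40), 8633 (-4.27), 5C (-3.05) and 73A (-1.42, adjusted p = 0.000546), and not called in 4638 (0.49, adjusted p = 0.0866) or JW81 (0.43, adjusted p = 0.165). In edgeR both 4638 and JW81 were called higher (1.05, adjusted p = 0.00307, and 0.99, adjusted p = 0.00791), and 73A, 5C and 8633 were not called.

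*Dtx1*, a direct NOTCH target, measured between 81.5 and 155 FPKM in the libraries of 20M, 2M, 73M and 78A, between 47.3 and 64.4 in 73A, between 41.0 and 44.8 in JW81 and between 0.0399 and 0.386 in 4638, 5C, 8633 and JW14. Leukemias 20M, 2M, 73M and 78A thus had the highest levels of both *Dtx1* and *Lmo1*. Both genes were above 1 FPKM in JW81 and under it in 5C, 8633 and JW14. Leukemia 73A had high *Dtx1* and *Lmo1* under 1 FPKM, and 4638 had low *Dtx1* and *Lmo1* above it. A link between these genes was not tested. Erythroid sums in the 4 leukemias with high *Lmo1* were 3.56 (VEH) and 6.07 (DEX) FPKM in 20M, 8.48 and 9.07 in 78A, 29.3 and 22.1 in 2M, and 753 and 101 in 73M, the leukemia with the most *Lmo1*. They were 361 and 735 in 4638, where *Lmo1* was lower. The part of erythroid cells in the *Lmo1* values was not tested. The genes most like *Lmo1* were *Mr1* (r = 0.939), *Gm17033* (0.938) and *Ace* (0.933). Of 6 protein-coding neighbours within 250 kb of *Lmo1*, *Eif3f*, 196 kb away, was the only one to reach 1 FPKM, and it was called in none of the 4 leukemias (log2 differences from -0.19 to 0.09). *Ric3*, 55.2 kb away, did not exceed 0.130 FPKM but was called higher in 20M (3.27, edgeR adjusted p = 0.000197), 2M (2.32, 0.00617) and 73M (2.22, 0.00585), and also in 4638 (1.70, 0.0285), and was not called in 78A (1.19, 0.160).

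*Lmo2* (chr2:103957986-103981878, plus strand) was highest in 4638, at 9.99 FPKM in VEH (434 counts) and 9.14 in DEX (302 counts). Both were above every other library, the next being 73M VEH at 3.53 FPKM, 2.59-fold lower than the lower library of 4638. In 73A it was expressed at 3.52 FPKM in VEH and 1.55 in DEX. It was split in 73M (3.53 and 0.830), 20M (1.33 and 0.835) and 78A (0.720 and 1.06), and under 1 FPKM in 2M (0.962 and 0.935), 5C (0.735 and 0.550), JW81 (0.648 and 0.423), 8633 (0.327 and 0.223) and JW14 (0.122 and 0.112). These splits depended on the length and unit used, since at 1 TPM, or with the principal transcript of 1529 bases in place of 2166 merged exon bases, 73M, 20M, 78A and 2M expressed *Lmo2* in both libraries. The number of leukemias that expressed it was then 6 in place of 2, and it was 7 at 0.5 FPKM and 1 at 2 FPKM.

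The library ranges of neighbours overlapped at every step from 73A down to JW81. By these ranges only 4638 at the top and 8633 and JW14 at the bottom stood clear. Compared within columns, 5C also exceeded JW81 in both. *Lmo2* was higher in 4638 than in the others by 3.55 ± 0.24 on the log2 scale (SE, edgeR adjusted p = 2.32e-08), in 73A by 1.37 ± 0.29 (0.00313) and in 73M by 1.20 ± 0.29 (0.00593), and lower in 8633 (-1.79, adjusted p = 0.00244) and JW14 (-3.22, adjusted p = 0.000151). Without 73M VEH the difference in 73M was 0.12 (adjusted p = 0.891), limma-trend did not call it either (0.91, adjusted p = 0.0534), and without 73A VEH that in 73A was 0.97 (adjusted p = 0.133). The other calls of *Lmo2* held in every alternative.

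Myeloid marker sums ran in nearly the same order as *Lmo2*. Over the 10 leukemia means of the log2 values, Pearson's r was 0.758 and Spearman's rho 0.927, with r = 0.876 without the leukemias with the most extreme sums, 4638 and JW14. These points share their libraries and so are a description only. The genes most like *Lmo2* were *Emilin2* (r = 0.996), *Lyn* (0.996), a kinase of myeloid and B cells, and *Sirpa* (0.995), a receptor on myeloid cells. Of 8 neighbours within 250 kb that reached 1 FPKM, 2 were called higher in 4638 (30.6% of all genes were). Another 2 were called lower, as were 4700 of all 17114 genes tested. The log2 differences of the 8 lay between -4.31 and 1.14. The highest of the 8 was that of *4931422A03Rik*, which lies within the span of *Lmo2* without sharing exon bases and measured 0.840 and 1.27 FPKM. *Cd59a*, 114 kb away and under 1 FPKM in every library (0.275 and 0.941 in 4638, at most 0.299 elsewhere), was called higher by 4.43 (edgeR adjusted p = 0.000191).

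**Figure D3:**
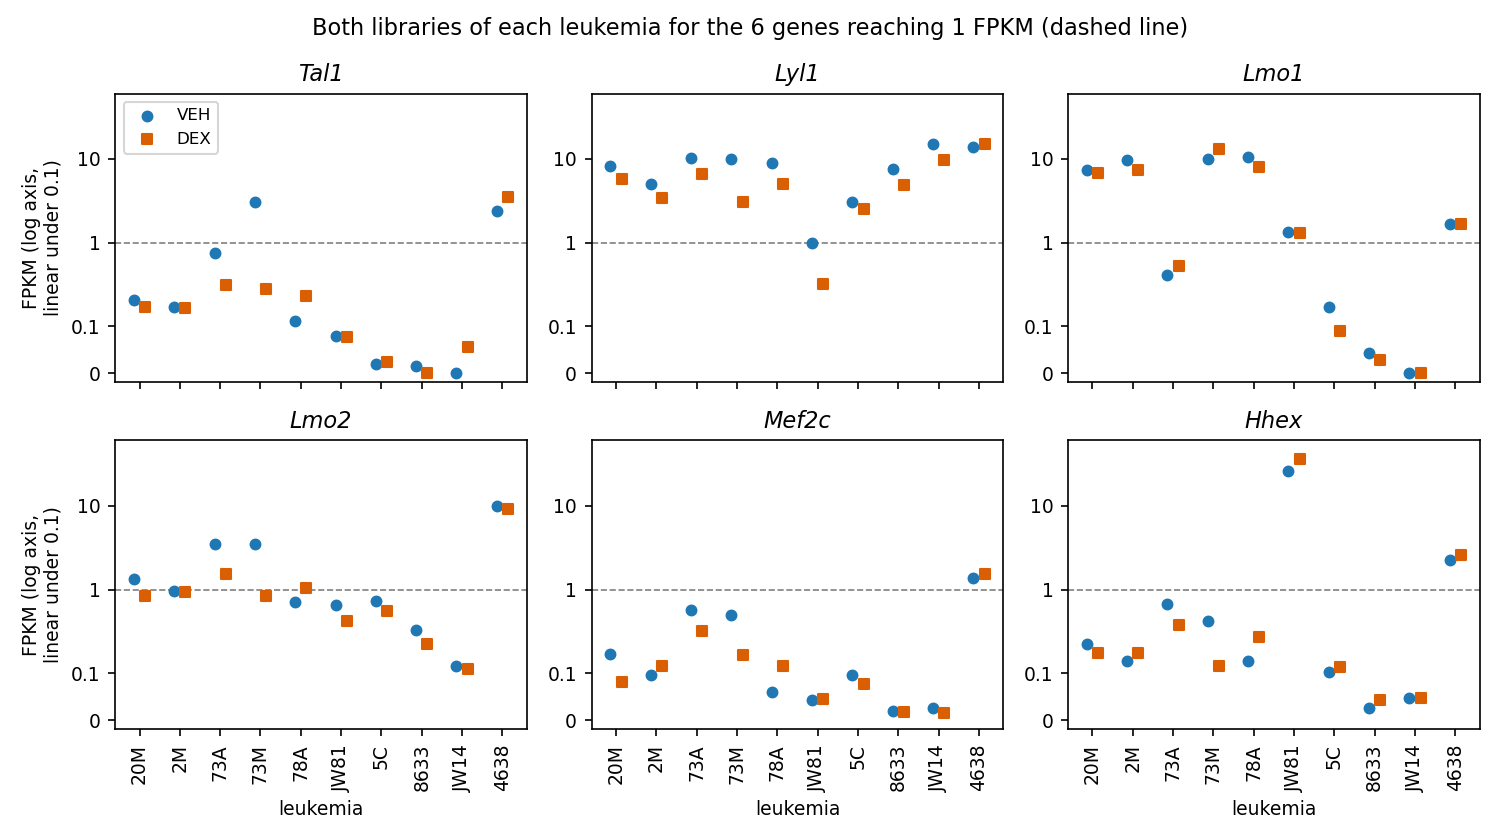
FPKM of the 6 genes that reached 1 FPKM, in the VEH (blue circles) and DEX (orange squares) library of each leukemia, on an axis that is logarithmic above 0.1 and linear below, with a dashed line at 1 FPKM. *Lmo1* is high in 20M, 2M, 73M and 78A, *Hhex* in JW81, and *Tal1*, *Lmo2* and *Mef2c* in 4638.

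*Hhex*, a homeobox gene of blood progenitors and B cells, was expressed in 2 leukemias, JW81 and 4638, and in JW81 it reached the highest level of the 10 genes. With the principal transcript of 1802 bases in place of 5056 merged exon bases, 73A also reached 1 FPKM in both libraries. The 250 bases before its RefSeq start site (GRCm38.p6, chr19:37434591-37434840, plus strand) are given for comparison with *Lmo1*, and none of the 3 motifs matched, so there are no capitals.
Hhex: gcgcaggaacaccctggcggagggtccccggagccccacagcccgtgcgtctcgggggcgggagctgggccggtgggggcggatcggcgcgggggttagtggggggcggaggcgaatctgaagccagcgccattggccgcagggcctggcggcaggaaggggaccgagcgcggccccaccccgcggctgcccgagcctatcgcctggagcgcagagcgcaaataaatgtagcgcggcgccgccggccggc

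In JW81 *Hhex* measured 25.9 FPKM in VEH (3365 counts) and 36.1 in DEX (3787 counts), a mean of 31.0 ± 7.19 (SD, n = 2). In 4638 it measured 2.27 and 2.57 FPKM (mean 2.42 ± 0.21), and no other library exceeded 0.676, which was 73A VEH. The lower JW81 library was 10.1-fold above the highest library of any other leukemia. Against the others, *Hhex* was higher in JW81 by 7.41 ± 0.19 on the log2 scale (SE, edgeR adjusted p = 1.82e-12) and in 4638 by 2.97 ± 0.24 (adjusted p = 1.53e-07), and both calls held in every alternative, the JW81 difference between 7.03 and 8.28. It was lower in 8633 (-3.44), JW14 (-2.90), 5C (-1.66) and 2M (-1.17). The call in 2M was lost in 7 of 29 alternatives, including without 4638 (adjusted p = 0.141) and without either library of 2M, and the call in 5C without either of its own libraries.

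Of the 8 erythroid markers 1 was called higher in JW81 (19.7% of all genes were), *Epor*, the gene of the erythropoietin receptor. It measured 8.56 FPKM in VEH and 10.9 in DEX, the highest of the series, against 1.83 and 3.46 in 4638 and a mean of at most 0.756 in the others (a log2 difference of 5.20, edgeR adjusted p = 1.86e-08). The part of erythroid cells in the *Hhex* values was not tested. The erythroid sums of JW81 were 13.4 (VEH) and 21.9 (DEX) FPKM, its B lineage sum was 1.21 in both libraries with none of the 7 markers at 1 FPKM, and its myeloid sums were 1517 and 597, the DEX library having the higher *Hhex* and the lower sum. Its T lineage sums were 836 and 759. The neighbours of *Hhex* (chr19:37434810-37440731) that reached 1 FPKM were 4 of 6 within 250 kb, and in JW81 they differed from the other leukemias by -0.24 to 0.72 on the log2 scale. *Exoc6*, 110 kb away, was higher by 0.72 ± 0.09 (adjusted p = 1.27e-05), *March5* by 0.33 ± 0.08 (0.00647), and the nearest, *Kif11* at 13.0 kb, was not called (-0.14, adjusted p = 0.379). The genes most like *Hhex* were *5430427O19Rik* (r = 0.989), *Sestd1* (0.981) and *Runx2* (0.978), a RUNX factor that measured 11.7 FPKM in JW81 and 3.31 in 4638.

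JW81 thus combined the highest *Hhex*, at 12.8-fold the mean of the next leukemia, with the lowest *Lyl1* of the series. The neighbours of *Lyl1* within 250 kb that reached 1 FPKM numbered 14. Of these, 4 were called higher in JW81 (19.7% of all genes were) and 3 lower (14.7%). The closest, the overlapping *Nfix*, was one of those called lower (0.0636 FPKM in VEH and 0.138 in DEX, a log2 difference of -1.29, adjusted p = 0.00932). The next, *Trmt1* and *Nacc1*, were not called (0.18, adjusted p = 0.308, and 0.06, adjusted p = 0.766). Of 3 tested neighbours under 1 FPKM, *Cacna1a*, 61.2 kb away, was called higher (0.222 and 0.198 FPKM, a log2 difference of 1.28, adjusted p = 0.000661).

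*Mef2c* (chr13:83504034-83667080) reached 1 FPKM in 4638, with 1.39 FPKM in VEH (437 counts) and 1.51 in DEX (363 counts). It measured 0.567 and 0.323 FPKM in 73A, 0.503 and 0.166 in 73M, 0.170 and 0.0827 in 20M, 0.0964 and 0.121 in 2M, and 0.0592 and 0.123 in 78A. The lowest were 5C (0.0957 and 0.0780), JW81 (0.0422 and 0.0460), JW14 (0.0253 and 0.0155) and 8633 (0.0193 and 0.0167). Its annotated exons sum to 15715 bases against 2589 for its principal transcript, so FPKM per merged length are low for this gene, and with the principal length 73A and 73M also reached 1 FPKM in both libraries.

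*Mef2c* was higher in 4638 by 3.86 ± 0.25 (SE, edgeR adjusted p = 1.62e-08), in 73A by 1.97 ± 0.30 (0.000213) and in 73M by 1.60 ± 0.29 (0.00102), and lower in 8633 (-2.79), JW14 (-2.48) and JW81 (-1.42) on the log2 scale. The call in 73M was lost without 73M VEH (0.71, adjusted p = 0.272), and the one in JW81 without 4638 (-0.98, adjusted p = 0.108), without 4638, 73A and 73M, and without either of its own libraries. Over the 10 leukemia means *Mef2c* ran with the B lineage sum (Pearson's r 0.935, Spearman's rho 0.927, r = 0.960 without 4638 and 73M), and so did *Tal1* (0.989, 0.964 and 0.975) and *Lmo2* (0.936, 0.903 and 0.903). For *Hhex* Pearson's r was 0.131 and Spearman's rho 0.733, for *Lmo1* 0.228 and 0.588, and for *Lyl1* 0.441 and 0.358. These values describe points that share their libraries, and the part of B cells in them was not tested. The genes most like *Mef2c* were *Gvin1* (r = 0.996), *Zeb2* (0.995) and *Gm26857* (0.995).

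**Figure D4:**
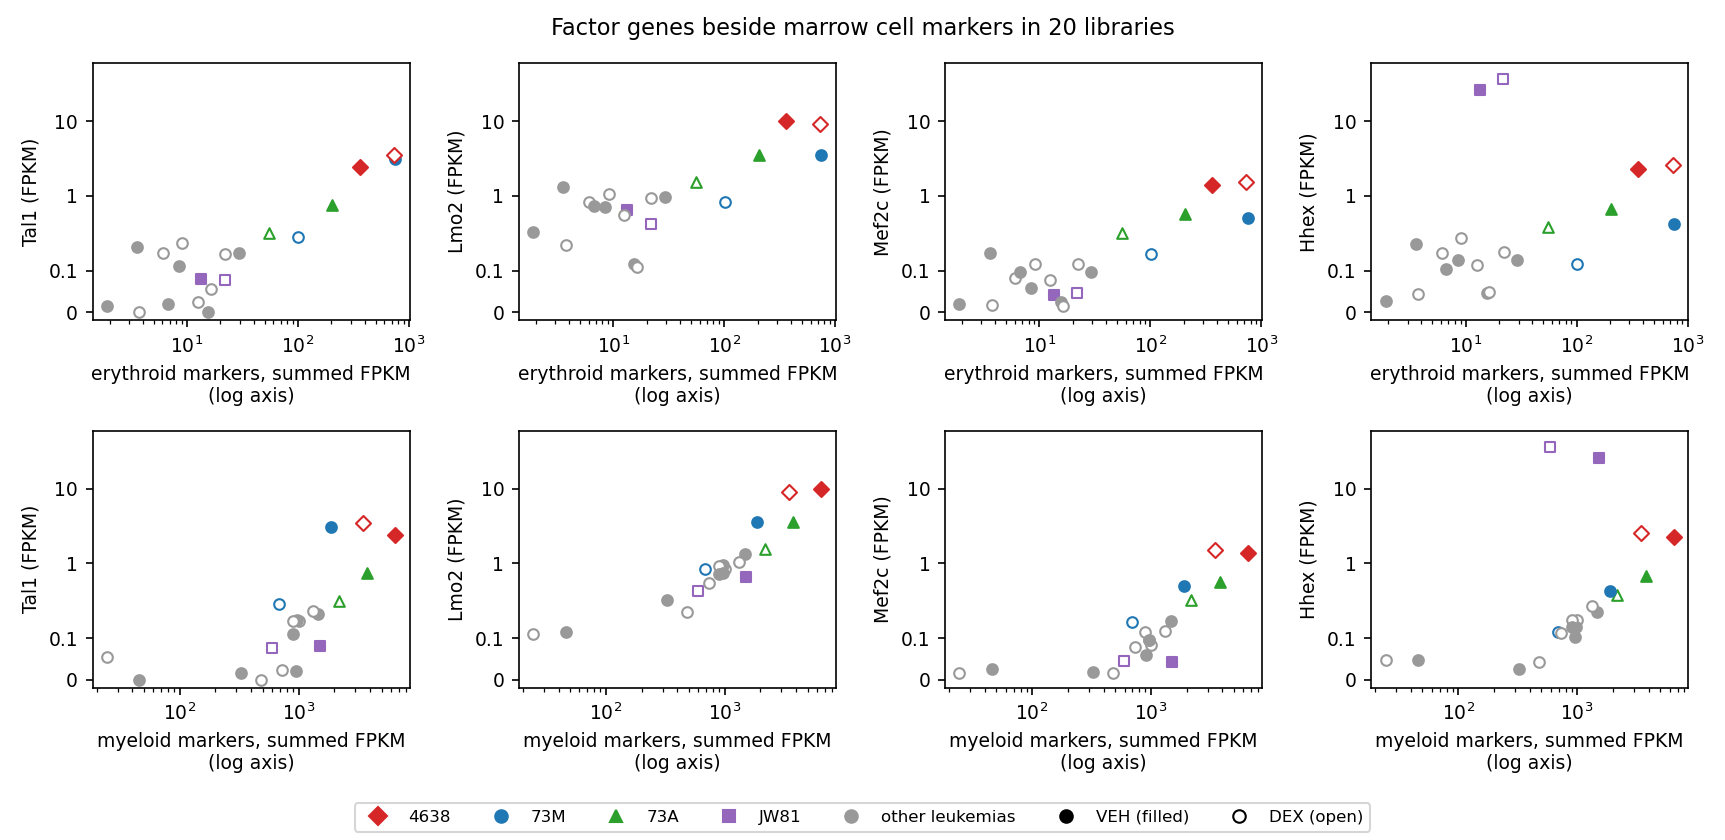
FPKM of *Tal1*, *Lmo2*, *Mef2c* and *Hhex* (vertical, logarithmic above 0.1 and linear below) against the summed FPKM of 8 erythroid (top) and 8 myeloid (bottom) markers (horizontal, logarithmic) in 20 libraries, VEH filled and DEX open. The libraries of 4638, 73A and 73M VEH lie towards the upper right for *Tal1*, *Lmo2* and *Mef2c*, and both *Hhex* points of JW81 lie apart from the rest.

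The HOXA genes were near the limit of detection. *Hoxa9* measured 0.366 FPKM in 4638 VEH (41 counts) and 0.321 in 4638 DEX, and no other library exceeded 0.0713 FPKM, with 10 of 20 libraries under 3 counts. Outside 4638 it did not exceed 0.398 counts per 1000000, under the 0.434 that the filter asked for in 2 libraries, so its test against the others is not given. Exons of *Hoxa9* share 85 bases with the microRNA gene *Mir196b*, which was at 0. *Hoxa10* did not exceed 0.0915 FPKM or 9 counts and was under 3 counts in 16 libraries. None of the other 9 *Hoxa* genes passed the filter on low counts, and the highest of them, *Hoxa7*, reached 0.251 FPKM.

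*Tlx1* and *Tlx3* had 1 count each in 2M DEX (0.0143 and 0.0200 FPKM) and 0 in the other 19 libraries. At 3 counts per library, these zeros allow more in the shallow libraries than in the deep ones, so low expression was not detectable at this depth in every library. Their relative *Tlx2* did not exceed 0.0305 FPKM. Among *Nkx2-1*, *Nkx2-5* and *Olig2*, factors found in rare human cases, *Nkx2-1* was the only one with enough counts to test. It stayed at or under 0.279 FPKM and was called higher in DEX columns (1.83, SE 0.40, adjusted p = 0.0146).

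Of 15 partners and relatives of TAL1 and LMO proteins, 8 reached 1 FPKM in all 20 libraries, 12 were tested and all 12 differed among leukemias, against 84.8% of all genes. *Ldb1*, the bridging partner, lay between 18.9 and 45.3 FPKM in all 20 libraries, the E protein gene *Tcf3* between 19.6 and 41.0, and *Gata3* between 3.35 and 22.3. The relatives *Tal2* and *Lmo3* did not exceed 0.101 and 0.0181 FPKM. *Lmo4*, the relative expressed in many tissues, had one of the widest ranges of the list, from a mean of 129 FPKM in 5C to 2.59 in 8633 and 2.99 in JW14. The other wide range was that of the E protein gene *Tcf4*, from 3.48 FPKM in 73A to 0.0181 in JW81. In DEX columns, where 3.79% of all genes were higher, 1 of the 12, *Lmo4*, was higher (0.56, adjusted p = 0.0259) and 3 were lower (4.81% of all genes were), *Gata3* (-0.83, adjusted p = 0.0163), *Runx1* (-0.50, adjusted p = 0.00928) and *Cbfa2t3* (-1.15, adjusted p = 0.0108), and these 3, like *Ldb1* and *Tcf3*, were named after their values were seen.

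Of 9 progenitor genes linked with LMO2, LYL1 and HHEX (*Gata2* and *Meis1* stand in another list too), all 9 were called higher in 4638 (30.6% of all genes were), 7 in 73A (16.8%) and 3 in 73M (18.4%), and 5 were called lower in 8633 (19%), 6 in JW14 (22.3%) and 4 in JW81 (14.7%). Markers of other marrow cells moved the same way. Of 8 myeloid markers, 8 were called higher in 4638 and 8 in 73A, and 7 were lower in JW14, 5 in 8633 and 2 in JW81. Of 8 erythroid markers, 8 were higher in 4638, 5 in 73A and 7 in 73M, and of 7 B lineage markers 7, 4 and 6 were. Their part in the progenitor genes was not tested. *Spi1*, a factor of myeloid and early T cell progenitors, had a mean of 15.4 FPKM in 4638, 4.31 in 73A and at most 2.16 elsewhere. *Kit*, the stem cell factor receptor, had 6.22 FPKM in 4638, 6.78 in 73A and at most 1.94 elsewhere. Of 10 cofactors of HOX and TLX proteins 9 were tested and 9 differed among leukemias, against 84.8% of all genes, with the widest ranges in *Pbx3* (3.65 FPKM in 78A to 0.0689 in JW14) and *Kmt2a* (28.5 in 73M to 7.05 in JW14). Among MEF2 relatives and class IIa histone deacetylases, 6 of 7 differed, close to that share, with the widest ranges in *Hdac7* (46.8 FPKM in 2M to 7.49 in 5C) and *Hdac5* (6.46 in 8633 to 0.667 in 78A). The paralogs *Mef2a* (1.80 to 6.58 FPKM) and *Mef2d* (6.51 to 20.2 FPKM) were expressed in all 20 libraries, and *Mef2b* reached 0.978 FPKM at most.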

How the data were processed

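Expected counts were deposited per gene by the authors, who selected poly(A) RNA, prepared TruSeq libraries, aligned paired reads with Bowtie 2 to mm10 and quantified them with RSEM. Versions and the annotation are not given in the sources used here, nor is a strand setting, so reads from overlapping genes on opposite strands cannot be told apart. All 20 columns were matched to a leukemia by name, 3 of them to the leukemia only. FPKM were computed from the counts, the library total and the merged exon length in GENCODE M21 (37693 genes). A floor of 3 counts covers counting error only, and ranged from 0.0149 to 0.365 FPKM per kb of exon.

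Counts were rounded and tested with edgeR 4.0.16 in R 4.3.3 (quasi-likelihood, TMM, filterByExpr, 17114 genes, Benjamini-Hochberg adjustment, threshold 0.05), with leukemia and column name as terms. The 2 libraries of a leukemia were paired by the leukemia in their labels. DESeq2 1.42.0 and limma 3.58.1 were alternatives. Tests were checked on simulated data. The genes and lists were chosen with earlier results of these data known. Genes named from lists were those past the test among leukemias with the 2 largest ranges, plus paralogs, and a gene of the lists is not reported here. *Ldb1*, *Tcf3*, *Gata3*, *Runx1*, *Cbfa2t3*, *Hoxa7*, *Nkx2-1*, *Nkx2-5*, *Olig2*, *Dtx1*, *Epor* and the neighbours of members were chosen after values were seen. Likeness was Pearson's r of leukemia means of log2(FPKM + 1), among tested genes averaging 1 FPKM or more. Motifs were searched in RefSeq windows (GRCm38.p6).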

Additional observations from a re-analysis of the deposited data

Results flagged for a closer look

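For *Hhex*, *Lmo2* and *Mef2c* the highest leukemia lay farther from the next than Dixon's 95% critical ratio for 10 values allows, taken as a share of the whole range of mean log2(FPKM + 1). Chance flags about 1 in 20 such groups. The gap was 0.651 of the range for *Hhex* in JW81, and in 4638 it was 0.505 for *Lmo2* and 0.605 for *Mef2c*. The ratio was also passed by *Hoxa9*, *Hoxa10*, *Tlx1* and *Tlx3*, all under 1 FPKM in every library, and is not read as a result for them. It was 0.790 for *Hoxa9* in 4638, with 10 libraries under 3 counts, and 0.493 for *Hoxa10* in 4638, with 16. For *Tlx1* and *Tlx3* it was 1 in 2M, where a single count in 2M DEX fixed it.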

How the results depend on the processing

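The number of genes called between DEX and VEH columns, 1471 with leukemia as a block, fell to 2 with no replicate block, to 616 with a term for the ribosomal RNA libraries and to 294 without 4638, 73A and 73M, and ranged from 734 to 2026 when each leukemia was left out, with 739 without 20M, 798 without 2M and 734 without 73A. The *Lyl1* call was lost without the block and kept in the other 17 alternatives. Member calls of each leukemia against the others numbered 35, ranged from 30 to 40 over single libraries left out and without 4638, were 33 without the 5 ribosomal RNA libraries and 30 without 4638, 73A and 73M, and were 23 when only genes averaging 1 FPKM or more entered, where fewer genes were tested. Expressed combinations numbered 21, with 26 at 0.5 FPKM, 17 at 2 FPKM, 25 at 1 TPM and 28 with principal transcript lengths.

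Differences between columns that were not called changed sign in *Tal1* (0.28 without 4638, 73A and 73M, and from -0.63 to 0.072 with each leukemia left out), *Lmo1* (-0.16 to 0.014), *Hoxa9* (-0.13 to 0.079, with 0.050 in limma-trend, 0.049 with the ribosomal RNA term, and 0.22 without 4638, 73A and 73M) and *Hhex* (-0.10 to 0.21, and -0.0033 in limma-trend). The cause was not tested. Of single calls against the other leukemias, 940 of 981 recomputed values kept the call. *Hoxa9* was not called among leukemias without 4638, 73A and 73M (edgeR adjusted p = 0.0671). As this gene passed the filter only through 4638, neither the call nor its loss is a result.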
